A study of Mus musculus with 8 samples.

Results

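The genes described here encode the collagens and other proteins of the extracellular matrix, with the enzymes that cross-link and cut it, measured in lymph nodes draining B16 melanomas of mice. The list held 44 genes, chosen by gene symbol in 4 classes, namely 9 fibrillar and other interstitial collagens, 13 interstitial glycoproteins and proteoglycans, 12 basement membrane genes and 10 remodeling genes. For each gene the brightest probe was used among those with a detection p-value under 0.05 on at least 4 of the 8 arrays, and 35 of the 44 genes had such a probe. All mice carried a subcutaneous B16 melanoma that had reached 30 to 40 mm2. The treated group received a single intratumoral injection of 3M-052, an agonist of the RNA sensors TLR7 and TLR8, and the vehicle group received the carrier alone. Draining nodes were taken 4 days after the injection from 4 mice per group, and each node gave 1 Illumina mouse bead array. The labels gave no strain, sex, age or B16 subline for these mice. The study's general methods name female C57BL/6 mice of a few weeks of age. There were no nodes from mice without a tumor and no uninjected tumors, so both groups share the tumor and the injection.

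Matrix in a lymph node is made largely by fibroblastic reticular cells, by fibroblasts of the capsule and vessel adventitia, by pericytes and by endothelium. Reticular cells wrap fibrils of type I and type III collagen, small leucine-rich proteoglycans and an outer layer of basement membrane proteins into conduits, which carry lymph fluid and small antigens and chemokines through the paracortex. Blood vessels, the high endothelial venules among them, lie on a basement membrane of type IV collagen, laminin, nidogen and perlecan. Matrix metalloproteinases cut these proteins, and the tissue inhibitors of metalloproteinases (TIMPs) block that cutting.

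Values are log2 intensities after background correction and quantile normalization. Each array measured the RNA of a whole node, so fewer cells of a type and less RNA per cell cannot be told apart. Of the 44 genes, 7 had no probe with that name in the annotation used here (Col5a2, Col6a3, Fbn1, Postn, Sparcl1, Lamb1 and Loxl2), and 2 had a probe below the detection filter (Lama2 and Lama4, each detected on 1 array per group). Of the 35 measured genes, 34 were detected on all 8 arrays. The exception was Mfap5, detected on 3 of 4 arrays after 3M-052 and on 4 of 4 after vehicle. Between 17817 and 20315 probes were detected per array. The labels describe the tissue as lymph node but the extraction text speaks of tumors, and lymph node stromal genes (Ccl19, Ccl21a, Cxcl13 and the rest of a list of 10) were detected on all 8 arrays.

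None of the 35 matrix genes passed the test in either direction (limma's moderated test, Benjamini-Hochberg adjusted over 19462 probes, adjusted p under 0.05), when 5.10% of all tested probes did (2.81% higher and 2.29% lower after 3M-052). At an unadjusted limma p under 0.05 there were 4 matrix genes, the membrane metalloproteinase gene Mmp14 on the higher side and fibronectin (Fn1), Col15a1 and Timp2 on the lower side, which is 11.4% of the measured genes against 20.4% of all probes (8.39% higher and 12.0% lower). The same 4 genes had groups that did not overlap, 11.4% against 12.7% of all probes (5.57% above and 7.10% below), so both shares were at or under the background. The methods' t-test, run on the same values, called no matrix gene after adjustment and 4 before it. Over all 19462 probes it called 216 after adjustment and 3662 before it. The median log2 fold change of the 35 genes was -0.15, that of all probes was -0.0098, and 21 of the 35 were negative. This is 60% of the genes, against 51.4% of all probes. By class the medians were -0.30 for the interstitial collagens, -0.07 for glycoproteins and proteoglycans, -0.26 for the basement membrane and 0.22 for the remodeling genes. These medians are descriptions of few genes each, and no class contained a called gene. Leaving out single arrays moved them between -0.41 and -0.11, -0.25 and 0.060, -0.35 and -0.11, and 0.075 and 0.27, in the same order. With arrays centered on the median of kept probes they were -0.12, 0.083, -0.098 and 0.20, and with the mean of 6 fat cell markers as a covariate they were 0.27, 0.16, -0.011 and 0.25, so the collagen median changed sign with the fat covariate and the glycoprotein median under all 3 kinds of change.

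**Figure D1:**
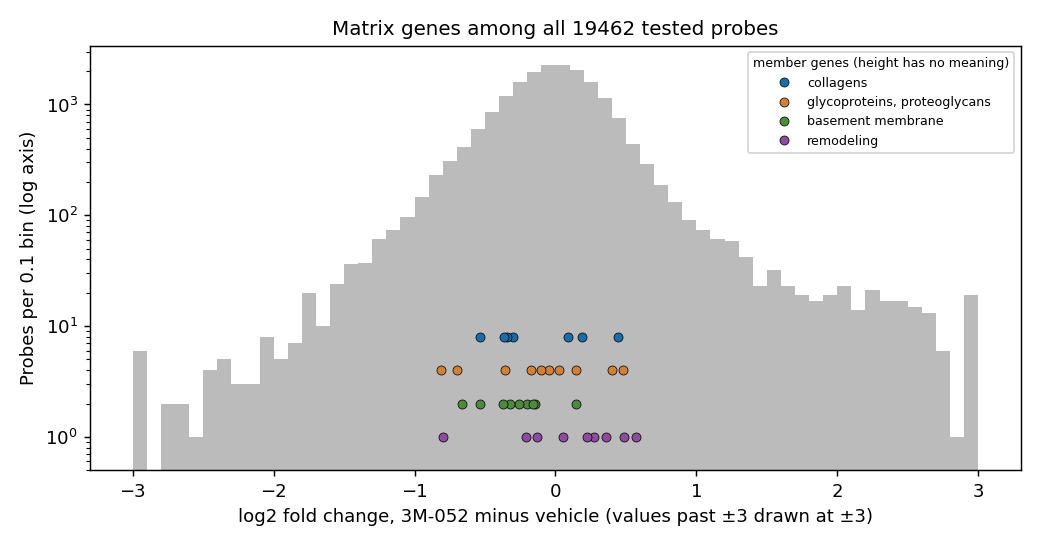
Log2 fold changes (3M-052 minus vehicle, x axis) of all 19462 tested probes as a gray histogram with a log axis of probes per bin, and of the 35 matrix genes as points colored by class, whose height has no meaning. The matrix genes lie between -0.81 (Fn1) and 0.57 (Timp1), within the middle of the histogram.

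The labels number the arrays 1 to 4 in each group but do not say what a number shares across groups. Over the 35 matrix genes, deviations from group means correlated by 0.11, 0.40, -0.45 and -0.05 between arrays of the same number. With replicate number taken as a block, 3 matrix genes were called lower and none higher. The 3 are Fn1, Col15a1 and Timp2. They are 8.57% of the 35 genes, and the same fit called 14.0% of all probes, 7.70% lower and 6.33% higher, so the share among matrix genes was near the background. The size of a difference that could have been missed was read from the 95% intervals of the unpaired fit. For 23 of the 35 genes the interval excluded both a 2-fold rise and a 2-fold drop, for 5 it also excluded a 1.5-fold difference either way, for 5 it reached a 2-fold rise and for 8 a 2-fold drop. Mice of the same group differed more for the typical matrix gene than for the typical probe. The median SD of the 35 genes was 0.38 in vehicle nodes and 0.40 after 3M-052 (n = 4 each), while the medians over all probes were 0.24 and 0.33.

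**Figure D2:**
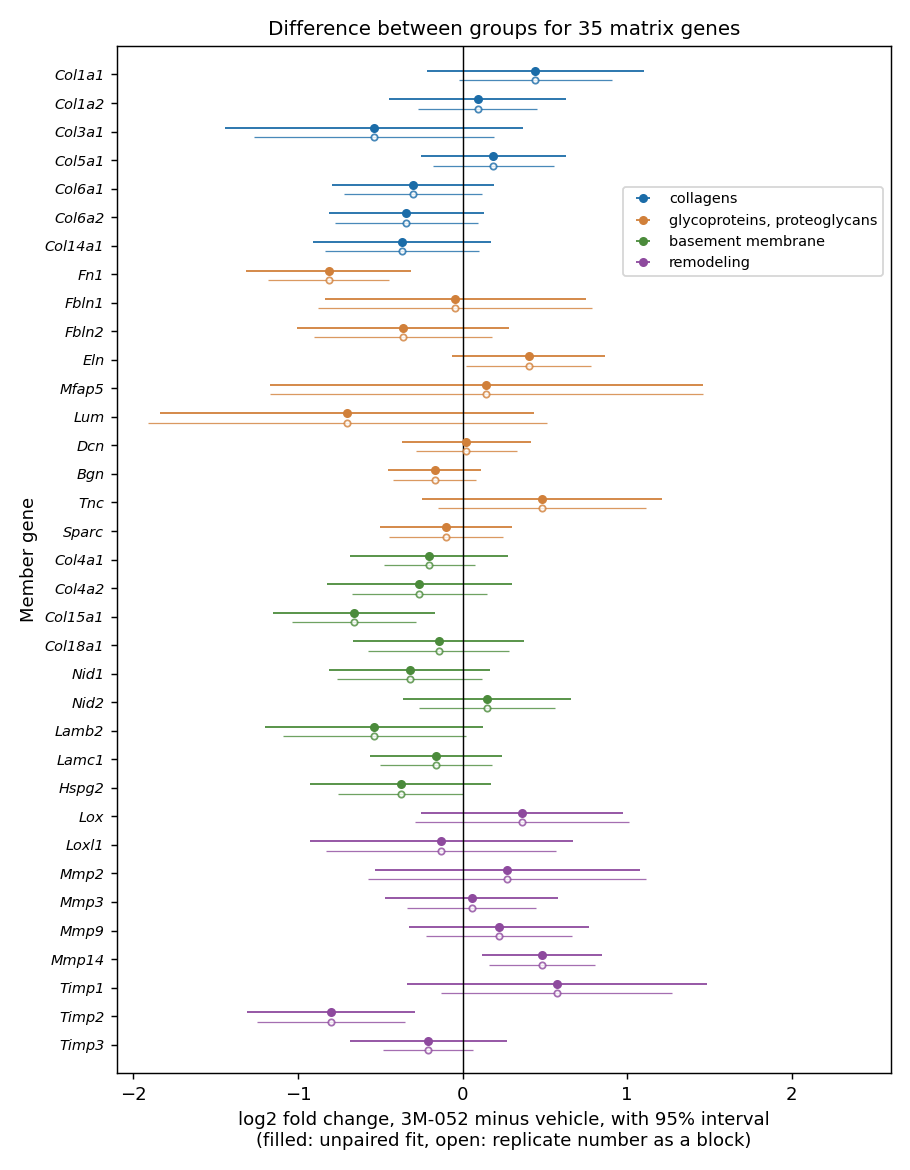
Log2 fold change (3M-052 minus vehicle) of each of the 35 matrix genes with its 95% interval, from the unpaired fit (filled) and with replicate number as a block (open), colored by class. In the unpaired fit the intervals of Fn1, Col15a1, Timp2 and Mmp14 leave out 0, and those of Mfap5 and Lum are the widest.

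The interstitial collagens form the fibrils and the beaded filaments of the tissue frame, and 7 of the 9 were measured. Col6a1 encodes a chain of type VI collagen, which makes beaded filaments near cells. Its log2 intensities after 3M-052 were 9.42, 10.42, 10.05 and 10.13 in replicates 1 to 4, and after vehicle they were 10.41, 10.53, 10.44 and 9.85. The groups overlapped, with the lowest value in the first 3M-052 array and vehicle replicate 4 below the other vehicle arrays. Its log2 fold change was -0.30 (SE 0.22, limma adjusted p = 0.50). Col6a2, another type VI chain, had a log2 fold change of -0.34 (SE 0.22, limma adjusted p = 0.41). Dimmer kept probes gave smaller differences, with log2 fold changes of -0.060 for Col6a1 and -0.042 for Col6a2. The class median rests on the brightest probes only.

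Col3a1, the type III collagen that is the main fibril of reticular fibers, had the largest log2 fold change of the class in absolute size. It measured 6.73, 6.35, 6.16 and 6.17 after 3M-052. After vehicle it measured 7.04, 7.27, 7.80 and 5.46. Vehicle replicate 4 was the lowest of all 8 arrays and the other 3 vehicle arrays were above every 3M-052 array. Between the groups the log2 fold change was -0.54 (SE 0.41, limma adjusted p = 0.52, exact permutation p = 0.37, two-sided, n = 4 per group). Without vehicle replicate 4 it was -1.02 with an adjusted p of 0.034 by limma, so this array decides whether Col3a1 is called.

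Type I collagen is a trimer of chains from Col1a1 and Col1a2. Col1a1 measured 7.61, 7.60, 7.60 and 8.56 after 3M-052 and 6.76, 7.19, 7.89 and 7.76 after vehicle. Col1a2 measured 6.64, 6.54, 6.66 and 5.91 after 3M-052 and 6.32, 6.57, 6.63 and 5.86 after vehicle. The fourth 3M-052 array was thus the highest of its group for Col1a1 and the lowest for Col1a2, so the probes of these chains did not follow each other in that node. The log2 fold changes were 0.44 (SE 0.30) for Col1a1 and 0.09 (SE 0.25) for Col1a2, with limma adjusted p-values of 0.45 and 0.88. Col5a1, whose product starts and limits type I fibrils, had a log2 fold change of 0.19, and Col14a1, a collagen that lies on the fibril surface, had -0.37, neither past the threshold. A dimmer kept probe of Col14a1 had a log2 fold change of -0.086.

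Among the glycoproteins and proteoglycans 10 of 13 were measured, 4 with a positive and 6 with a negative log2 fold change. Fn1 encodes fibronectin, an adhesive glycoprotein that cells assemble into fibrils through integrins. It measured 7.45, 7.60, 7.82 and 7.67 after 3M-052, and 8.02, 8.56, 9.04 and 8.18 after vehicle. Every 3M-052 array was below every vehicle array, and the vehicle arrays spread more widely. For Fn1 the log2 fold change was -0.81 (SE 0.23), which is 0.57 times the vehicle level with a 95% interval from 0.40 to 0.80. The limma adjusted p was 0.066 in the unpaired fit and 0.012 with replicate number as a block, and the exact permutation p was 0.029 (two-sided, n = 4 per group), the smallest that 4 against 4 can give. Without vehicle replicate 4 the unpaired limma adjusted p was 0.049. Leaving out any other single array did not bring Fn1 past the threshold. Without vehicle replicate 3 its log2 fold change was -0.62, and the lowest limma adjusted p of any matrix gene was 0.16.

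Decorin (Dcn), a small proteoglycan that binds collagen fibrils, had the brightest probe of its class. It measured 12.32, 12.81, 12.26 and 12.25 after 3M-052. After vehicle it measured 12.63, 12.49, 12.48 and 11.95. The groups lay over each other, with a log2 fold change of 0.02 and a 95% interval from -0.37 to 0.41. Biglycan (Bgn), a related proteoglycan, had the narrowest interval of all 35 genes, from -0.45 to 0.11 around a log2 fold change of -0.17. For the brightest probes of both genes a 1.5-fold difference in either direction lies outside the interval. Dimmer kept probes of Dcn had log2 fold changes of 0.217 and 0.223. Their 95% intervals reached 1.72-fold and 1.70-fold, so they do not exclude a 1.5-fold rise.

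Lumican (Lum), which regulates fibril spacing, and Mfap5, a microfibril protein, were the most variable. Lum measured 7.07, 6.46, 6.11 and 8.34 after 3M-052 and 7.82, 7.31, 8.94 and 6.72 after vehicle. Mfap5 measured 6.77, 5.58, 4.87 and 7.41 after 3M-052 and 6.48, 5.10, 7.37 and 5.11 after vehicle. For both genes the fourth 3M-052 array and the third vehicle array were the highest of their groups, and the spread within a group was larger than the difference between the groups. Their log2 fold changes were -0.70 (SE 0.52) and 0.14 (SE 0.60), and the 95% intervals of both reached a 2-fold drop, that of Mfap5 also a 2-fold rise.

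Tenascin C (Tnc), a glycoprotein made mostly in remodeling tissue, measured 8.65, 8.65, 8.89 and 8.87 after 3M-052 and 8.01, 9.06, 7.24 and 8.82 after vehicle. The treated arrays were close together and the vehicle arrays ranged over all of them, with a log2 fold change of 0.48 (SE 0.33, limma adjusted p = 0.46). Elastin (Eln), the core of elastic fibers, had a log2 fold change of 0.40 (SE 0.21, limma adjusted p = 0.32), with 2 of the 4 treated arrays above every vehicle array. The fibulins Fbln1 and Fbln2, which bind elastic fibers and basement membranes, had log2 fold changes of -0.04 and -0.36, and the collagen-binding protein Sparc had -0.10. Other kept probes of Fbln1 (1 probe) and Sparc (2 probes) had a sign opposite to that of the brightest probe, none of them past the threshold.

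**Figure D3:**
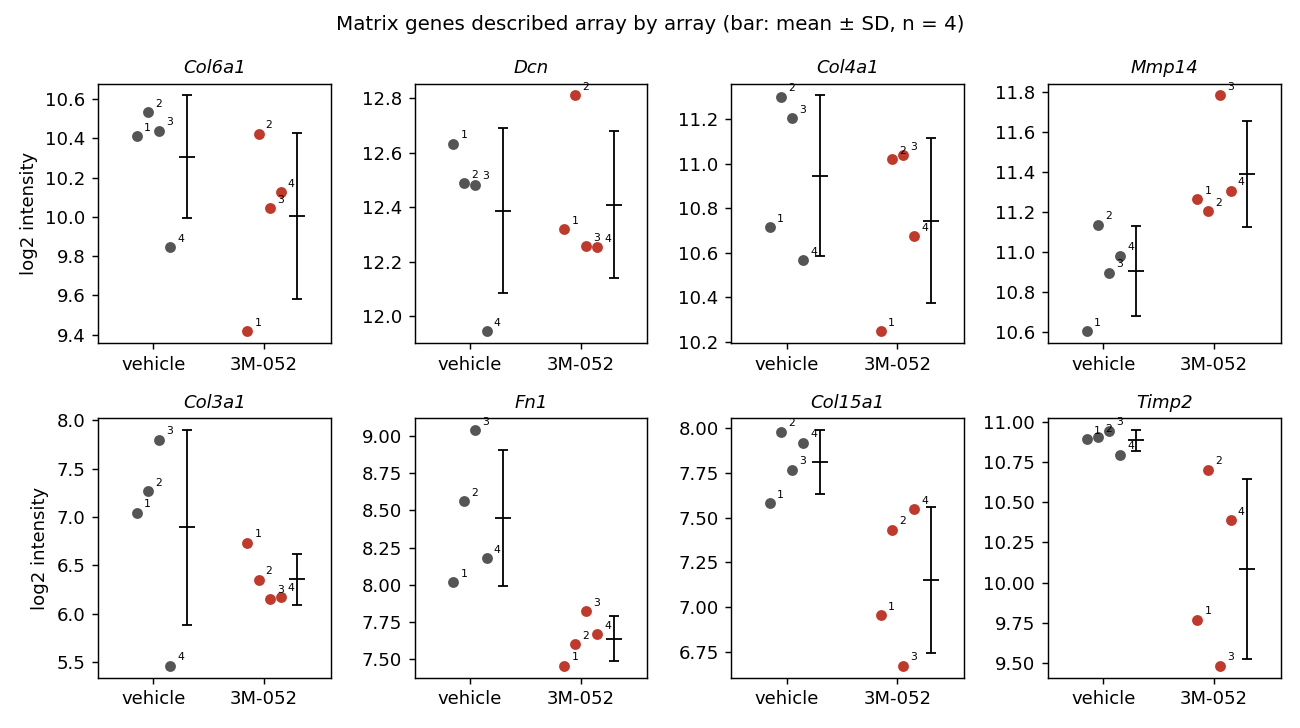
Log2 intensity on each array (points, numbered by replicate) of the genes of each class with the brightest probe (upper row) and with the largest absolute log2 fold change (lower row), vehicle in gray and 3M-052 in red, with the mean ± SD of 4 arrays as a bar; Mmp14 and Timp2 are the pair for remodeling. The groups do not overlap for Fn1, Col15a1, Mmp14 and Timp2, and vehicle replicate 4 lies apart for Col3a1.

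The basement membrane class had 9 measured genes of 12, and 8 of the 9 had a negative log2 fold change, though none passed the test in the unpaired fit. Type IV collagen, the network of the basement membrane, is built of chains that include those of Col4a1 and Col4a2. Col4a1 measured 10.25, 11.02, 11.04 and 10.67 after 3M-052 and 10.71, 11.30, 11.20 and 10.57 after vehicle. The groups overlapped, and in replicates 1 to 3 the treated array was below the vehicle array of the same number while in replicate 4 it was above. The log2 fold change was -0.20 (SE 0.22, limma adjusted p = 0.67). Col4a2 had a log2 fold change of -0.26 (SE 0.26, limma adjusted p = 0.63).

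Col15a1 encodes type XV collagen, which links basement membranes of vessels to the fibrils beneath them. It measured 6.95, 7.43, 6.67 and 7.55 after 3M-052. After vehicle it measured 7.58, 7.98, 7.77 and 7.92. Every treated array was below every vehicle array. The log2 fold change was -0.66 (SE 0.23), or 0.63 times the vehicle level with a 95% interval from 0.45 to 0.89. The limma adjusted p was 0.12 unpaired and 0.031 with replicate number as a block, with an exact permutation p of 0.029 (two-sided, n = 4 per group). Col18a1, the related collagen from which endostatin is released, had a log2 fold change of -0.15 (SE 0.24).

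Nidogens and perlecan connect the laminin and collagen networks. The brightest Nid1 probe had a log2 fold change of -0.32 (SE 0.22, limma adjusted p = 0.46). A dimmer Nid1 probe was detected on 4 of 4 vehicle arrays, at 5.43, 5.32, 5.03 and 5.42, and on none of the 3M-052 arrays, where its signal was 4.35, 4.85, 4.40 and 4.67. Since it was not above background after 3M-052, only a bound can be given, at least 1.15-fold lower after 3M-052 against the lowest detected signal of each array. Its limma adjusted p was 0.048, but the probe had passed the detection filter through the vehicle arrays alone. For this reason neither the bound nor this p is support for a lower level of Nid1.

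Nid2 had a log2 fold change of 0.15, the only positive value of the class. The laminin chains Lamb2 and Lamc1 had log2 fold changes of -0.54 (SE 0.30) and -0.16 (SE 0.18), with limma adjusted p-values of 0.35 and 0.68. Perlecan (Hspg2) measured 8.45, 9.10, 8.25 and 9.05 after 3M-052 and 8.52, 9.45, 9.21 and 9.16 after vehicle. In each replicate number the treated array was lower, with a log2 fold change of -0.38 (limma adjusted p = 0.44, and 0.17 with the block). A dimmer Hspg2 probe had a log2 fold change of -0.59 (limma adjusted p = 0.26).

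The remodeling class had 9 measured genes of 10, with 6 positive and 3 negative log2 fold changes. Mmp14 encodes a membrane-bound metalloproteinase that cuts fibrillar collagen and activates the product of Mmp2. It measured 11.26, 11.20, 11.78 and 11.31 after 3M-052 and 10.61, 11.14, 10.90 and 10.98 after vehicle. Every treated array was above every vehicle array, the nearest being 3M-052 replicate 2 and vehicle replicate 2. The log2 fold change was 0.48 (SE 0.17), 1.40 times the vehicle level with a 95% interval from 1.08 to 1.80. The limma adjusted p was 0.12 unpaired and 0.055 with replicate number as a block, and the exact permutation p was 0.029 (two-sided, n = 4 per group). When arrays were centered on the median of the kept probes in place of quantile normalization, the log2 fold change was 0.71 and the limma adjusted p was 0.046. Centering on the median of all probes called no matrix gene (lowest limma adjusted p = 0.10). Macrophages also express Mmp14, and a list of 8 measured macrophage markers had no called gene and a median log2 fold change of 0.29. The part of those cells in the Mmp14 values was not tested.

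Timp2 encodes an inhibitor that also takes part in activating the Mmp2 product together with that of Mmp14. It measured 9.77, 10.70, 9.48 and 10.39 after 3M-052, and 10.89, 10.90, 10.94 and 10.80 after vehicle. The vehicle arrays differed little among themselves (SD 0.063), all treated arrays were lower, and replicates 1 and 3 were the lowest. The log2 fold change was -0.80 (SE 0.23), 0.57 times the vehicle level with a 95% interval from 0.40 to 0.82. The limma adjusted p was 0.076 unpaired and 0.028 with replicate number as a block, and the exact permutation p was 0.029 (two-sided, n = 4 per group). Without 3M-052 replicate 2 the unpaired log2 fold change was -1.01 with a limma adjusted p of 0.019. Leaving out any other single array did not bring Timp2 past the threshold, and without 3M-052 replicate 3 its log2 fold change was -0.60.

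Mmp2, a gelatinase of fibroblasts, measured 9.13, 10.52, 9.08 and 10.06 after 3M-052 and 9.56, 9.21, 10.23 and 8.72 after vehicle. The groups overlapped, with a log2 fold change of 0.27 (SE 0.37). Mmp9, a gelatinase of myeloid cells, had a log2 fold change of 0.22 (SE 0.25) and the stromelysin Mmp3 had 0.05 (SE 0.24). Timp1, an inhibitor gene that responds to inflammatory signals, measured 9.38, 7.28, 7.91 and 8.60 after 3M-052 and 7.35, 7.13, 8.07 and 8.34 after vehicle. Only 2 treated arrays were above the vehicle range, and the log2 fold change of 0.57 (SE 0.42) was not past the threshold (limma adjusted p = 0.49). Timp3, whose product binds to the matrix, had -0.21 (SE 0.22). The cross-linking enzymes Lox and Loxl1 had log2 fold changes of 0.36 (SE 0.28) and -0.13 (SE 0.37). Loxl1 ranged over 8.43 to 10.72 in vehicle nodes alone, with vehicle replicate 4 the lowest and replicate 3 the highest.

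Nodes of the same group were ranked for each of the 35 genes. Vehicle replicate 3 was the highest vehicle array for 18 genes, and for all probes it was the highest in 23.3%. Vehicle replicate 4 was the lowest vehicle array for 15 genes, when 35.4% of all probes were lowest there. After 3M-052, replicate 3 was the lowest for 15 genes and replicate 1 for 13, and replicate 4 was the highest for 13 and replicate 2 for 12. Over all probes the shares were 27.7% lowest in each of the first pair, and 25.0% and 19.9% highest in the second. The mean of the 35 genes ranged from 8.37 to 8.81 after 3M-052 and from 8.41 to 8.96 after vehicle, so the groups overlapped over most of their range. For the basement membrane genes alone the means were 8.06, 8.62, 8.19 and 8.59 after 3M-052 and 8.36, 8.88, 8.86 and 8.48 after vehicle.

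**Figure D4:**
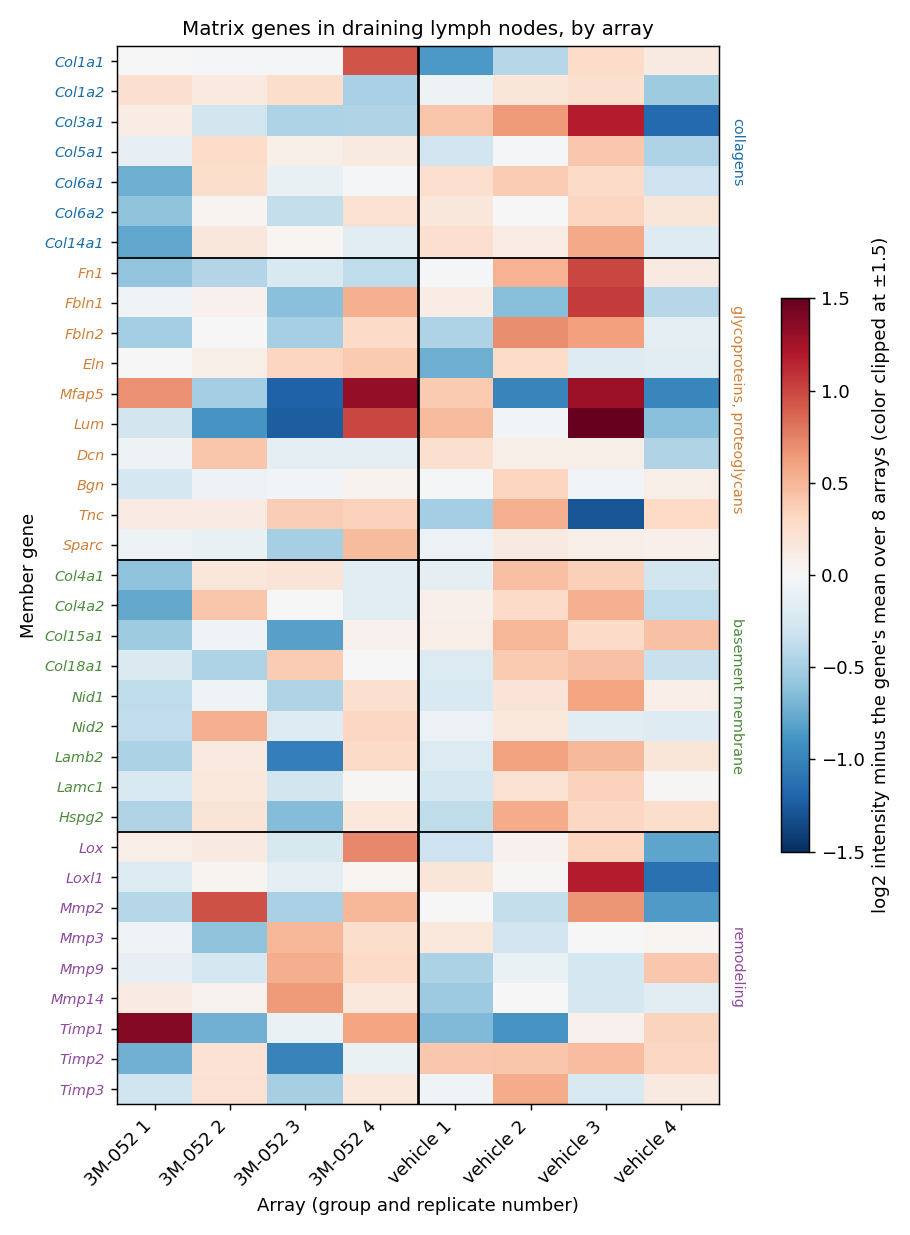
Log2 intensity of each of the 35 matrix genes on each array, as the difference from the mean of that gene over the 8 arrays (red above, blue below, color clipped at 1.5), with 3M-052 arrays at the left of the black line and vehicle arrays at the right. Vehicle replicate 3 is red for many genes and 3M-052 replicates 1 and 3 are blue for many.

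Other genes that serve the matrix were read from the same fit. Collagen folding and processing (prolyl and lysyl hydroxylases, the collagen chaperone Serpinh1 and others) had 14 of 16 genes measured, none called, and a median log2 fold change of 0.05 with a range from -0.15 to 0.38. Of 24 measured other matrix proteins 1 fell and none rose. It was vitronectin (Vtn), an adhesive glycoprotein, with a log2 fold change of -1.38 (SE 0.23, limma adjusted p = 0.0060), and the list median was -0.23. Of 15 other proteases and inhibitors, Mmp25, a membrane-anchored metalloproteinase of leukocytes, fell by 1.02 on the log2 scale (limma adjusted p = 0.017) and none rose. Of 19 matrix receptors, Gpc1, a glypican that carries heparan sulfate, fell by 0.94 on the log2 scale (limma adjusted p = 0.020), the list median was -0.30, and no integrin chain passed the unpaired test. With the block the integrin chain Itgav was lower (log2 fold change -0.71, limma adjusted p = 0.025). The Itga7 probe also passed this threshold and is in the block count below. It was detected on 4 of 4 vehicle arrays and on 0 of 4 after 3M-052. The probe thus passed the detection filter through the vehicle arrays alone, so its call is no support for a lower level of Itga7. Of 17 genes of TGF-beta signaling, the pathway best known for driving matrix synthesis, the coreceptor gene Tgfbr3 fell by 1.02 and the corepressor gene Ski by 0.80 on the log2 scale (limma adjusted p = 0.026 and 0.041), and none rose. With replicate number as a block the counts higher and lower were 0 and 5 for other matrix proteins, 2 and 2 for proteases, 1 and 4 for receptors, 0 and 4 for TGF-beta signaling, and 0 and 0 for collagen folding. Over all probes the shares higher and lower were 2.81% and 2.29% in the unpaired fit, and 6.33% and 7.70% with the block.

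Markers of the cells that make matrix did not all behave alike. Beside the counts below, 2.81% of all probes were higher and 2.29% lower in the unpaired fit, and 6.33% and 7.70% with the block. Of 10 reticular stroma markers the chemokine genes Ccl21a and Ccl19 fell, by 1.21 and 0.75 on the log2 scale, and the chemokine gene Cxcl13 rose by 0.51 (limma adjusted p = 0.039, 0.020 and 0.046). None of 11 markers of adventitial and capsular fibroblasts was called, with a median of -0.15. None of 10 pericyte and smooth muscle markers was called in the unpaired fit (2 lower with the block), with a median of -0.50. Of 12 blood endothelial markers 5 fell and none rose (9 lower with the block), with a median of -0.71. They include Vwf, the von Willebrand factor gene (-1.79), Chst4, a sulfotransferase of high endothelial venules (-1.30), and Glycam1, a mucin of the same venules (-1.16). The mean of the blood endothelial list ranged from 8.60 to 9.62 after 3M-052 and from 9.54 to 10.08 after vehicle, lower after 3M-052 as Col15a1 and 7 other basement membrane genes were in their group means. Its part in those values was not tested. None of 6 lymphatic endothelial markers was called in the unpaired fit (2 higher with the block), with a median of 0.59.

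Markers of fat cells, melanocytes, keratinocytes and skeletal muscle also varied between arrays. The mean of 6 fat cell markers was 6.89, 7.72, 5.77 and 7.62 after 3M-052 and 8.65, 9.57, 9.61 and 6.58 after vehicle, so vehicle replicate 4 was as low as the treated nodes. It was the lowest vehicle array for 15 of the 35 matrix genes, Col3a1 and Loxl1 among them, when 35.4% of all probes were lowest there. For 2 genes, Timp1 and Mmp9, it was the highest. Before normalization the replicate 4 arrays had the lowest mean intensity of their groups, 330.7 after 3M-052 and 306.1 after vehicle. No fat marker passed the unpaired test (1 lower with the block, Lipe) and 2 of the 6 were detected on all 8 arrays. With the fat list mean as a covariate the log2 fold changes were -0.62 for Fn1, -0.48 for Col15a1, -0.48 for Timp2 and 0.37 for Mmp14, and the limma adjusted p-values ranged from 0.55 to 0.68. The median over the 35 genes was then 0.087. The mean of 3 melanocyte markers was 10.02 in vehicle replicate 3, the array with the highest matrix values, and between 4.95 and 6.23 on the other 7 arrays. All mice carried a B16 melanoma, and whether tumor cells gave this signal was not tested. No matrix gene was called in the unpaired fit with vehicle replicate 3 or without it, so these counts cannot show what that array contributed. Without it the median log2 fold change of the 35 genes was -0.074, against -0.15 with all arrays. Of the immune lists, T cells had 3 of 6 genes lower, and 4 with the block (the 3 are Cd3e, Cd3g and Cd8b1, with log2 fold changes of -0.89, -0.84 and -0.68), and B cells, macrophages and neutrophils had none called. Over all probes 2.29% were lower in the unpaired fit and 7.70% with the block. Keratinocyte (4 measured) and skeletal muscle markers (2 measured) had none called in the unpaired fit (with the block 1 keratinocyte marker, Krt14, was lower), with medians of -0.49 and -0.82. With the fat list mean as a covariate no gene of any of the 18 lists was called in either direction. Over all probes the same fit called 134 higher and 18 lower, against 546 and 446 without the covariate, so calls were lost well beyond these lists. The fat list mean was itself lower on average after 3M-052, so this fit cannot separate fat content from the treatment. The part of any of the listed cells in the matrix values was not tested.

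**Figure D5:**
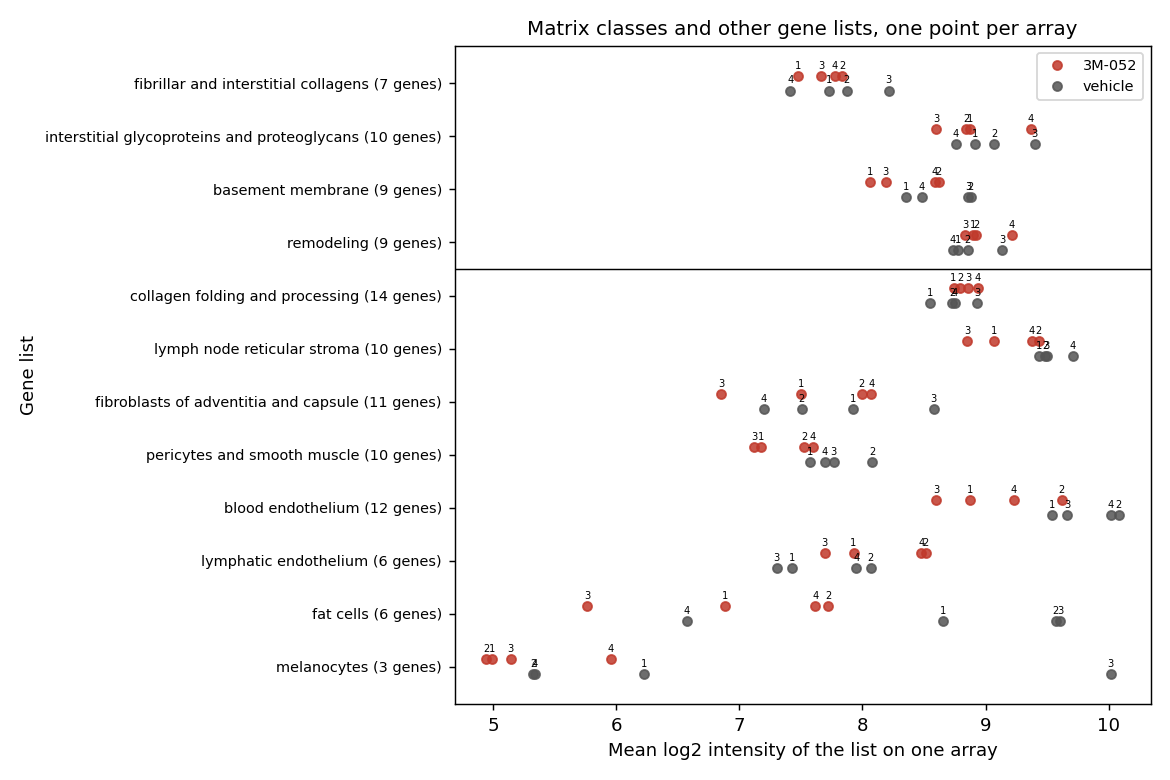
Mean log2 intensity of each gene list on each array (numbered by replicate), 3M-052 in red and vehicle in gray, for the 4 matrix classes (above the line) and for collagen folding and markers of stromal, vascular, fat and melanocyte cells (below the line). The groups overlap for all 4 matrix classes, the fat list is low in vehicle replicate 4, and the melanocyte list is high in vehicle replicate 3.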

How the data were processed

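The authors amplified and biotin-labeled total RNA from each node, hybridized it to Illumina mouse whole-genome bead arrays, and deposited non-normalized probe intensity values with a detection p-value for each probe and array, exported from GenomeStudio per the labels (version not given in the sources used here). Of 45281 probes, 19462 had a detection p-value under 0.05 on at least 4 arrays, and 3048 of these had no gene name in the annotation used. The authors' normalized intensity table of 21765 probes served as an alternative. Its scale is linear, it was not centered, and each column correlated best with its own array.

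Intensities were corrected and normalized with neqc of limma 3.58.1 in R 4.3.3 (normexp with detection p-values, offset 16, quantile normalization, log2). The comparison used limma's lmFit and its moderated test (eBayes, trend on), adjusted by Benjamini-Hochberg over all kept probes. P-values treat each array as a separate mouse, as the series' design text states. The number of arrays limits the precision. The fit was tested on simulated data with noise drawn separately for each probe and array. That simulation does not cover the correlation between arrays of the same number. Single genes were also compared by exact permutation, which cannot go below 0.029 with 4 against 4.

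Values on every array were planned for genes past the threshold and, in each class, for the gene with the brightest probe and the one with the largest log2 fold change. Other genes shown array by array were chosen after their values were seen. In each further list up to 3 called genes per direction were named. Members and lists were chosen with earlier results of these data known. Deviations from group means correlated by 0.19, 0.43, 0.25 and 0.57 between arrays of the same number over all probes, so the numbers were taken as pairs on this ground alone. Over the 35 matrix genes the correlations were 0.11, 0.40, -0.45 and -0.05. No sequence or coordinate is given, since the array tables name no genome build.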

Additional observations from a re-analysis of the deposited data

Results flagged for a closer look

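Among 80 groups of 4 arrays that were checked, 3 held an array far from the other 3 by Dixon's criterion, which chance alone gives in about 1 group in 20. Col1a1 measured 8.56 in 3M-052 replicate 4 and 7.60 to 7.61 in the other 3 treated arrays. Col1a2 measured 5.91 in the same array and 6.54 to 6.66 in the others, so these probes of type I collagen stood apart in opposite directions in 1 node. Decorin (Dcn) measured 12.8 in 3M-052 replicate 2 and 12.25 to 12.32 in the others.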

How the results depend on the processing

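Under 17 of 21 alternatives no matrix gene was called. The exceptions were centering of arrays on the median of kept probes, where 1 rose (Mmp14), replicate number as a block, where 3 fell, and leaving out single arrays, where 0 to 2 fell and none rose. Over all probes the counts were 546 higher and 446 lower. They became 838 and 869 with array weights, 1232 and 1499 with the replicate block, 118 and 98 with the methods' t-test and 134 and 18 with the fat covariate. The count lower became 255 without the detection filter and 145 with centering on the median of all probes, an alternative chosen after seeing the data. Leaving out single arrays gave 283 to 670 higher and 118 to 683 lower. The median log2 fold change of the matrix genes became 0.087 with the fat covariate and ranged from -0.22 to -0.074 without single arrays.

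No sign changed for a gene called in any setting except Col3a1 (0.27 with the fat covariate). That covariate also turned Col6a1 (0.014), Fbln1 (0.42), Fbln2 (0.095), Lum (0.13), Sparc (0.068), Col4a1 (0.026), Col4a2 (0.087), Lamc1 (0.029), Loxl1 (0.57), Mmp3 (-0.18) and Mmp9 (-0.13). Centering on kept probes turned Bgn (0.14), Sparc (0.17), Col4a1 (0.015) and Loxl1 (0.023), and centering on all probes Bgn (0.075), Sparc (0.11), Col1a2 (-0.022) and Mfap5 (-0.031). Array weights turned Col1a2 (-0.024), Dcn (-0.025) and Mmp3 (-0.085), averaged probes Fbln1 (0.027) and Sparc (0.053), and the authors' values Fbln1 (0.0025). Without single arrays the sign changed within Col1a2 (-0.070 to 0.27), Fbln1 (-0.26 to 0.30), Mfap5 (-0.27 to 0.60), Dcn (-0.13 to 0.10), Sparc (-0.28 to 0.047), Nid2 (-0.0070 to 0.29), Loxl1 (-0.52 to 0.24), Mmp2 (-0.0032 to 0.54) and Mmp3 (-0.10 to 0.27). The causes were not tested.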
